A study of Mus musculus with 9 samples.

Results

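The genes described here are 39 mouse genes of integrins and focal adhesions, taken by symbol from the 24100 genes of the count table. They are 17 integrin subunits, 11 alpha and 6 beta, and 22 proteins that bind integrin tails, link them to actin or signal from them. The table holds RNA-seq counts of 9 libraries made from poly(A) RNA of cells, neural by label, that were differentiated from mouse embryonic stem cells. There were 3 groups of 3 libraries: cells stably expressing PiggyBAC_H4K91Q_3HA, PiggyBAC_H4K91R_3HA or PiggyBAC_H4WT_3HA. All 9 libraries share the mark 4Ddif in their labels, which do not spell it out. All groups, the controls too, thus carried a tagged histone H4 delivered with the PiggyBac transposon, and H4WT was the wild-type form. Lysine 91 of H4 lies in the globular part of the histone, where the H3-H4 tetramer meets the H2A-H2B dimers; glutamine in its place (H4K91Q) resembles an acetylated lysine, whereas arginine (H4K91R) keeps the positive charge and cannot be acetylated. The labels give neither the level of the tagged histone nor the state of the cells' own H4 genes, and they do not say whether the 3 libraries of a group came from separate differentiations or cell lines, so the p-values measure only the spread between these libraries. The question was which genes change when an H4K91 mutant is expressed; each mutant was compared with H4WT, and the mutants with each other.

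Integrins are receptors made of an alpha and a beta subunit that bind matrix proteins outside the cell and actin inside it. Which matrix protein is bound depends on the pair: some alpha subunits recognise collagens, some laminins, and others the RGD sequence of fibronectin and vitronectin. Inside the cell, talin and kindlin bind the beta tail and switch the receptor on, vinculin, alpha-actinin and filamin tie it to actin filaments, and the scaffold of ILK, parvin and PINCH, the kinase FAK and a set of LIM proteins gather at the site as tension grows. Cells that pull strongly on their matrix, such as smooth muscle cells and myofibroblasts, are known for many large focal adhesions, whereas neurons form smaller, short-lived contacts.

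The libraries held 8970553 to 28887501 counts, with H4WT replicate 2 the deepest and the other H4WT libraries the shallowest. The summed level of 10 neuron markers was 721 to 768 CPM in H4K91Q libraries, 897 to 1096 CPM in H4K91R libraries and 249.98 to 328 CPM in H4WT libraries (in CPM, a gene's count scaled by the library's effective size). All 10 neuron markers had counts in every group, but so had genes of other cells: fibroblast genes such as collagens were abundant, and 10 such markers summed to 7246 to 7904 CPM in H4K91Q, 6701 to 7490.1 CPM in H4K91R and 5978 to 6956 CPM in H4WT libraries. The 10 smooth muscle markers summed to 454 to 509 CPM in H4K91Q, 485 to 771 CPM in H4K91R and 4025 to 4840.3 CPM in H4WT libraries, and all 9 that could be tested were called lower in each mutant. Only Myocd was too low to test. In bulk RNA, fewer cells of a type and less RNA per cell cannot be told apart, which holds for every change below, and the part of the cell types in these changes was not tested.

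Most integrin and focal adhesion genes were lower in both mutants than in H4WT cells. Of the 39 genes, 38 had enough counts to be tested. Against H4WT, 28 of 38 were called lower and 2 higher in H4K91Q cells at an adjusted p below 0.05, where 23.8% of the 14761 genes tested were called lower and 22.5% higher. In H4K91R cells 29 were called lower and 3 higher, against 25.1% and 20.9% of all genes tested. The adhesion genes called lower were 73.7% in H4K91Q and 76.3% of those tested in H4K91R cells. The 39 genes were chosen with earlier results of these data known. Their shares, set beside those of all genes, thus describe the chosen genes and are no test of the set. Scaled by library size alone, which raised the median of all genes by 0.17 in H4K91Q and 0.18 in H4K91R cells (log2), 26 and 27 adhesion genes were called lower. A fall of at least 2-fold was called for 17 adhesion genes in H4K91Q, where 4.17% of all genes passed that mark, and for 14 in H4K91R, where 4.59% did.

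The median log2 change of the 38 genes was -0.94 in H4K91Q and -0.79 in H4K91R cells, beside 0.01 and -0.03 over all genes tested. The adhesion genes are well expressed: 31 of them averaged at least 10 CPM, and of these 25 were called lower in H4K91Q and 24 in H4K91R cells, where 28.8% and 29.8% of the 10265 genes at that level were. Of these 31, Itga8 and Itga9 were called higher in each mutant, beside 18.6% and 17.5% of genes at that level. Of the 38 genes, 28 had all H4K91Q libraries below all H4WT libraries, and 29 had all H4K91R libraries below. Over all genes tested, 27.7% had all H4K91Q libraries below all H4WT libraries, and 30.1% had all H4K91R libraries below. These counts come from the same values as the calls and add no support to them. Both mutants were set against the same 3 H4WT libraries, so their values are given side by side and not as repeats of each other. In all, 27 genes were called lower in both, Itga8 and Itga9 higher in both, 4 in 1 mutant only and 5 in neither, and none in opposite directions. Together, the 39 genes summed to 5428, 5033 and 5815 CPM in H4K91Q libraries and to 6612, 5649 and 5226 CPM in H4K91R libraries. In H4WT libraries they summed to 12299, 10077 and 12797 CPM, all far above the mutant libraries.

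**Figure D1:**
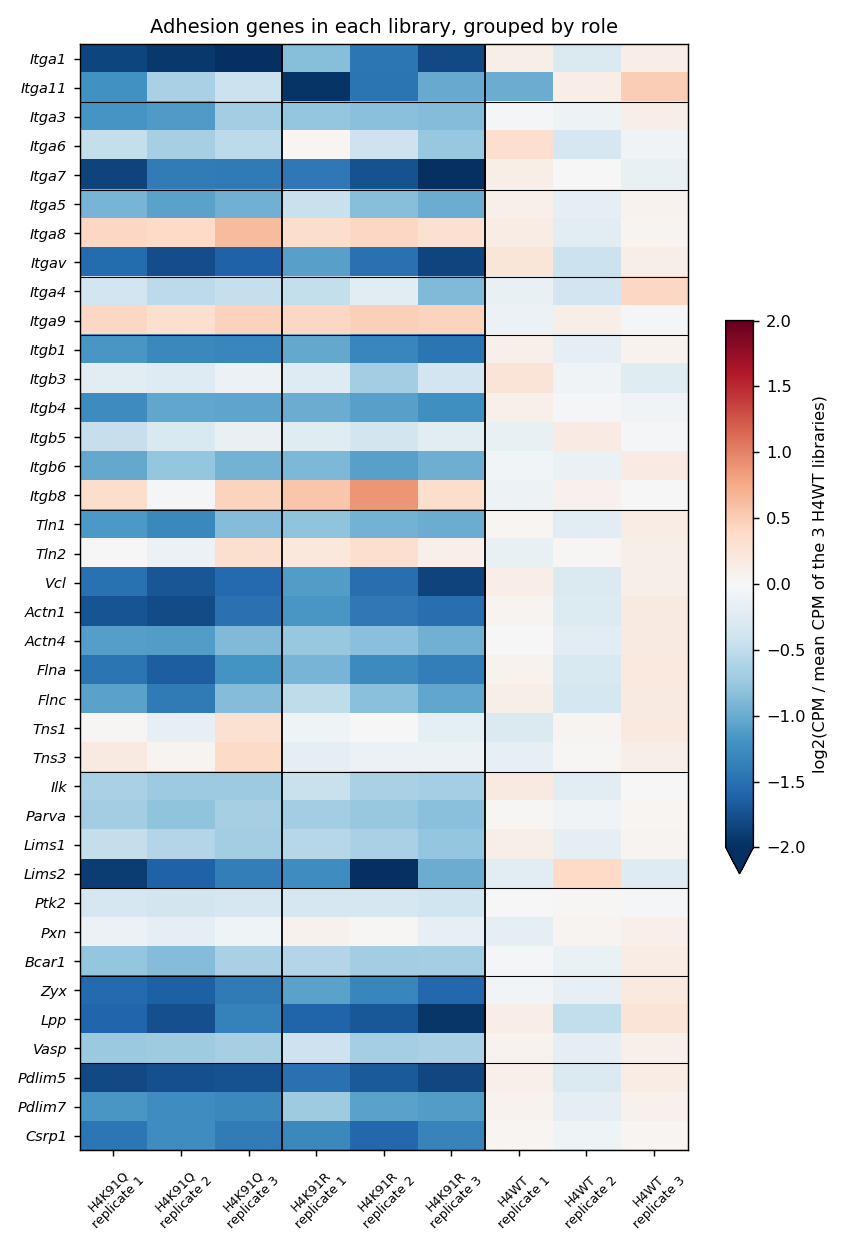
Heat map of the 38 tested adhesion genes (rows, grouped by role) in the 9 libraries (columns), as log2 of each library's CPM over the mean CPM of the 3 H4WT libraries. Blue rows fill the 6 mutant columns for most genes, Itga8 and Itga9 are red there, and Pxn, Tns1, Tns3 and Tln2 are near white; the colour scale ends at -2 (log2), below which lay Itga7 in H4K91R replicate 3 and Lims2 in H4K91R replicate 2.

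Among the alpha subunits of collagen receptors, Itga1, which pairs with beta1 to bind collagen, read 9.56, 8.92 and 8.61 CPM in H4K91Q, 18.9, 12.5 and 9.75 CPM in H4K91R and 36.9, 27.9 and 37.5 CPM in H4WT libraries (replicates 1 to 3 in order, as in all such lists; chromosome 13, 114958079-115101964, GRCm38.p6). All 6 mutant libraries lay below the H4WT libraries, and the H4K91Q libraries below the H4K91R libraries. The log2 change of Itga1 against H4WT was -1.89 ± 0.19 (SE, adjusted p = 6.18e-06) in H4K91Q and -1.26 ± 0.19 (SE, adjusted p = 0.000135) in H4K91R cells, from edgeR's quasi-likelihood test with Benjamini-Hochberg adjustment over all genes, as for each adjusted p that follows. Itga11, the collagen receptor subunit known from fibroblasts, had 4.97, 7.32 and 8.50 CPM in H4K91Q, 2.93, 4.17 and 5.71 CPM in H4K91R and 5.77, 12.6 and 16.04 CPM in H4WT libraries. Its H4WT libraries spread widely, and the lowest of them lay within the H4K91Q range. Its change was -1.49 ± 0.33 (SE, adjusted p = 0.00249) in H4K91R cells, whereas that of -0.75 ± 0.30 (SE, adjusted p = 0.0535) in H4K91Q cells did not pass. It passed in 8 of 15 alternative analyses, whose adjusted p ran from 0.00181 to 0.208. Among these were the fit with the replicate number as a block (-0.69, adjusted p = 0.00181) and those without H4K91Q replicate 3, H4K91R replicate 1 or 3, or H4WT replicate 1, the low library (adjusted p = 0.047, 0.0409, 0.0442 and 0.00523). Itga2, a collagen receptor subunit of epithelia and platelets, was the gene too low to test. It had 0.214, 0.149 and 0.352 CPM in H4K91Q, 0.518, 0.0786 and 0.295 CPM in H4K91R and 1.32, 0.519 and 0.735 CPM in H4WT libraries.

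The laminin-binding alpha subunits fell less evenly. Itga6, which pairs with beta1 or beta4, had 90.1, 79.5 and 87.7 CPM in H4K91Q, 129.5, 94.4 and 74.1 CPM in H4K91R and 158, 99.5 and 119.6 CPM in H4WT libraries. The H4K91R libraries reached into the H4WT range, and the H4K91Q libraries stayed under it. Its change was -0.54 ± 0.18 (SE, adjusted p = 0.0262) in H4K91Q and -0.32 ± 0.18 (SE, adjusted p = 0.168) in H4K91R cells, which passed in H4K91Q and not in H4K91R cells. The difference between the mutants did not pass (adjusted p = 0.504). The H4K91Q call was lost without H4K91Q replicate 2 or 3 or H4WT replicate 1 (adjusted p = 0.0766, 0.0565 and 0.13). Itga6 was called in H4K91R cells in 2 of 15 alternatives, among them without H4K91R replicate 1, their highest library (-0.57, adjusted p = 0.0135). Itga7, the laminin receptor subunit of muscle, was scarce but clearly separated, with 1.16, 1.59 and 1.58 CPM in H4K91Q, 1.55, 1.26 and 0.788 CPM in H4K91R and 4.57, 4.22 and 3.80 CPM in H4WT libraries (chromosome 10, 128933421-128958286). Its changes, -1.55 ± 0.23 (SE, adjusted p = 0.000125) in H4K91Q and -1.74 ± 0.25 (SE, adjusted p = 8.63e-05) in H4K91R cells, were the largest falls among the laminin receptors. Itga3, which pairs with beta1 as a laminin receptor of epithelia, averaged 64.3 ± 12.4 CPM in H4K91Q, 72.1 ± 2.31 CPM in H4K91R and 127 ± 10.4 CPM in H4WT cells (SD, n = 3 each). It changed by -0.99 and -0.82 on the log2 scale.

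The RGD-binding alpha subunits split in direction. Itgav, the partner of several beta subunits in receptors for vitronectin, fibronectin and latent TGF-beta, read 205, 174 and 193 CPM in H4K91Q, 278, 211 and 166 CPM in H4K91R and 701, 439 and 641 CPM in H4WT libraries (chromosome 2, 83722303-83806917). The highest mutant library stood well under the lowest H4WT library. Its changes were -1.64 ± 0.18 (SE, adjusted p = 1.25e-05) in H4K91Q and -1.44 ± 0.18 (SE, adjusted p = 3.04e-05) in H4K91R cells, which left 32.1% and 36.8% of the H4WT mean. Itga5, the alpha subunit of the main fibronectin receptor, averaged 123 ± 6.27 CPM in H4K91Q, 146 ± 29.9 CPM in H4K91R and 244 ± 25.5 CPM in H4WT cells (SD, n = 3 each). It fell by 0.98 and 0.73 on the log2 scale. Itga8, a receptor subunit for nephronectin that is known from kidney development and smooth muscle, was higher in both mutants. It read 27.8, 27.7 and 32.4 CPM in H4K91Q, 26.6, 27.9 and 25.8 CPM in H4K91R and 23.1, 17.9 and 21.8 CPM in H4WT libraries. Each mutant library exceeded each H4WT library, but the change was modest, 0.51 ± 0.11 (SE, adjusted p = 0.00194) in H4K91Q and 0.38 ± 0.11 (SE, adjusted p = 0.0128) in H4K91R cells. Without H4WT replicate 2, its lowest library, the H4K91R call was lost (adjusted p = 0.0784).

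Itga4 and Itga9, subunits that bind VCAM-1 and, for Itga9, tenascin-C, have a close resemblance in sequence but moved differently here. Itga9 had 45.5, 43.3 and 47.1 CPM in H4K91Q, 45.8, 47.6 and 46.6 CPM in H4K91R and 31.6, 37.3 and 33.7 CPM in H4WT libraries (chromosome 9, 118606709-118901003). The mutant libraries formed a tight group above all H4WT libraries. Its log2 changes were 0.39 ± 0.08 (SE, adjusted p = 0.0012) in H4K91Q and 0.44 ± 0.08 (SE, adjusted p = 0.000605) in H4K91R cells. Itga4 averaged 7.67 ± 0.418 CPM in H4K91Q, 7.41 ± 1.63 CPM in H4K91R and 10.5 ± 3.07 CPM in H4WT cells. Its changes of -0.40 and -0.44 did not pass (adjusted p = 0.11 and 0.0939). Both did without H4WT replicate 2 (-0.61 and -0.64, adjusted p = 0.0266 and 0.0249). Of the 10 alpha subunits tested, 6 were lower and 2 higher in H4K91Q, and likewise 6 lower and 2 higher in H4K91R cells. Over all genes tested, 23.8% were called lower and 22.5% higher in H4K91Q, and 25.1% and 20.9% in H4K91R cells. The share of alpha subunits called higher, 20% in each mutant, was near that of all genes. The calls of Itga11 and Itga6, each passing in 1 mutant here, depended on the analysis as given above.

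Among the beta subunits, Itgb1, the common partner of collagen, laminin and fibronectin receptor alpha subunits, was the most abundant integrin by far. It read 932, 855 and 847 CPM in H4K91Q, 1028, 842 and 760.4 CPM in H4K91R and 2236, 1837 and 2179 CPM in H4WT libraries (chromosome 8, 128685654-128733579). Even the highest mutant library, H4K91R replicate 1, stood far below the lowest H4WT library. The fall was of nearly the same size in both, -1.25 ± 0.11 (SE, adjusted p = 1.98e-06) in H4K91Q and -1.25 ± 0.11 (SE, adjusted p = 1.30e-06) in H4K91R cells, and left 42.1% and 42.1% of the H4WT mean. Itgb4, the hemidesmosome subunit that pairs with alpha6, had 9.86, 11.5 and 11.3 CPM in H4K91Q, 11.9, 11.2 and 10.04 CPM in H4K91R and 25.3, 23.0 and 22.5 CPM in H4WT libraries. Its libraries were tightly grouped within each group, and the changes were -1.12 ± 0.11 (SE, adjusted p = 3.80e-06) in H4K91Q and -1.08 ± 0.11 (SE, adjusted p = 5.00e-06) in H4K91R cells.

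The other 4 beta subunits are known as partners of alpha v. Itgb6, a subunit of epithelial cells that helps to activate latent TGF-beta, averaged 7.33 ± 0.667 CPM in H4K91Q, 6.96 ± 0.42 CPM in H4K91R and 13.8 ± 1.45 CPM in H4WT cells. It fell by 0.90 and 0.97 on the log2 scale. Itgb5, a vitronectin receptor subunit, was abundant and changed little. It fell by 0.31 (adjusted p = 0.018) and 0.28 (adjusted p = 0.0304). The call was lost in 3 of 15 alternative analyses for H4K91Q and in 6 of 15 for H4K91R, among them leaving out H4WT replicate 2 (adjusted p = 0.0878 and 0.164). Leaving out H4K91Q replicate 1 ended it in H4K91Q cells, and leaving out H4K91R replicate 1 or 2 or H4WT replicate 3 in H4K91R cells. Itgb3, the vitronectin receptor subunit known from platelets and osteoclasts, had a change of -0.19 that did not pass in H4K91Q (adjusted p = 0.311) and of -0.42 that barely passed in H4K91R (adjusted p = 0.0418). That call was kept in only 5 of 15 alternatives and lost without H4K91Q replicate 1 or 2, H4K91R replicate 2 or 3, or H4WT replicate 1 or 2 (adjusted p = 0.161 without H4WT replicate 1). Itgb8, which also activates latent TGF-beta and is known from neural cells of the developing brain, was the beta subunit with a rise. Its change was 0.25 ± 0.18 (SE, adjusted p = 0.265) in H4K91Q, which did not pass, and 0.60 ± 0.18 (SE, adjusted p = 0.015) in H4K91R cells, which did. The Itgb8 libraries were 6.39, 4.93 and 6.86 CPM in H4K91Q, 7.37, 9.28 and 6.40 CPM in H4K91R and 4.69, 5.33 and 5.02 CPM in H4WT libraries. Without H4K91R replicate 2, the highest, the call was lost (adjusted p = 0.0768). Whether Itgb3 and Itgb8 differed between the mutants did not pass either (adjusted p = 0.397 and 0.24).

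Levels can be compared between genes once divided by length. As CPM per kilobase of exon, Itgb1 averaged 215 in H4K91Q, 215 in H4K91R and 511 in H4WT cells. In H4WT cells the next integrins were Itgav at 55.3, Itga5 at 49.5 and Itgb5 at 46.6 CPM per kilobase, whose libraries overlapped. In the mutants this order differed: Itgb5 averaged 37.8 in H4K91Q and 38.6 in H4K91R cells and Itga5 24.995 and 29.6, whereas Itgav averaged only 17.7 and 20.3 CPM per kilobase. Itga3 and Itga6 followed, and the remaining subunits lay under 10 CPM per kilobase in all groups. The lowest of those tested in H4WT cells were Itgb8 at 0.453 and Itga7 at 0.519 CPM per kilobase.

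**Figure D2:**
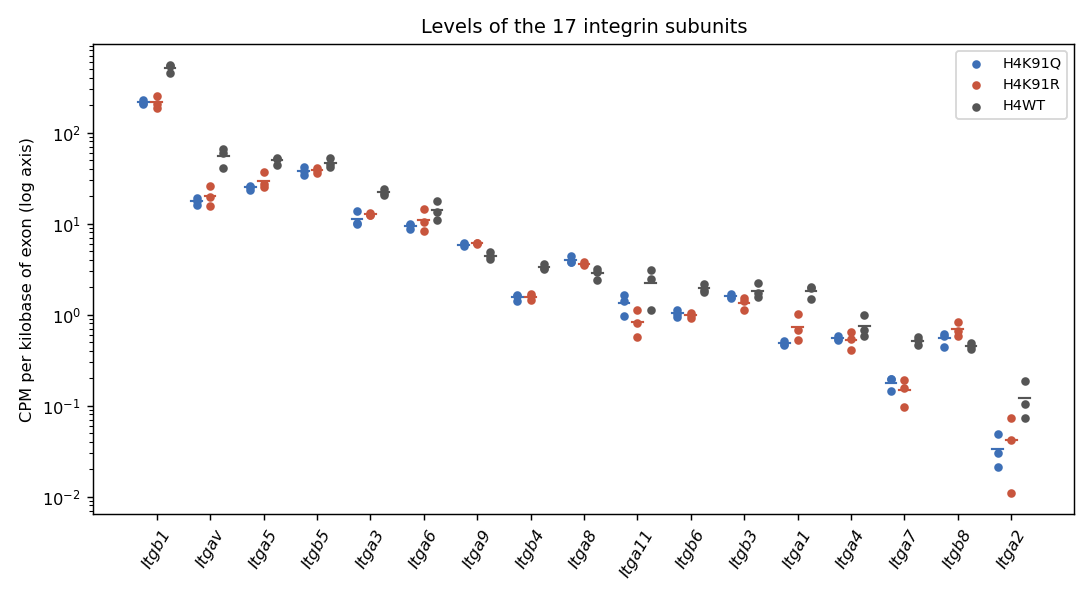
Levels of the 17 integrin subunits in CPM per kilobase of exon (log axis), ordered by the H4WT mean, with 1 point per library and a bar at each group's mean. Itgb1 stands above all others in every group, and Itga8, Itga9 and Itgb8 are the subunits whose mutant means lie above the H4WT mean.

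The proteins that link integrin tails to actin showed the same direction with marked exceptions. Of 9 actin linkers, 6 were called lower in H4K91Q and 6 in H4K91R cells, and none higher, beside 23.8% and 25.1% of all genes tested called lower, with medians of -1.09 and -0.85 on the log2 scale. Flna, the filamin that cross-links actin and binds beta tails, read 799, 701 and 961 CPM in H4K91Q, 1158, 909 and 846 CPM in H4K91R and 2299.7, 1778 and 2526 CPM in H4WT libraries (chromosome X, 74223461-74249854). Each mutant library was below the lowest H4WT library, and its changes were -1.42 ± 0.15 (SE, adjusted p = 8.05e-06) in H4K91Q and -1.18 ± 0.15 (SE, adjusted p = 2.96e-05) in H4K91R cells. Vcl encodes vinculin, which binds talin stretched by force and ties it to actin. It read 203, 174.5 and 194 CPM in H4K91Q, 264, 202 and 159 CPM in H4K91R and 626, 469 and 625 CPM in H4WT libraries (chromosome 14, 20929383-21033676), with every mutant library under every H4WT library. Its changes were -1.59 ± 0.16 (SE, adjusted p = 5.07e-06) and -1.46 ± 0.16 (SE, adjusted p = 8.10e-06), which left 33.2% and 36.3% of the H4WT mean.

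Actn1 and Actn4 encode the 2 non-muscle alpha-actinins, which cross-link actin filaments in stress fibres. Actn1 had 208, 199 and 243 CPM in H4K91Q, 306, 254 and 242 CPM in H4K91R and 718, 569.8 and 776 CPM in H4WT libraries (chromosome 12, 80167542-80260420). Its changes were -1.66 ± 0.12 (SE, adjusted p = 7.29e-07) in H4K91Q and -1.36 ± 0.12 (SE, adjusted p = 1.72e-06) in H4K91R cells. Actn4 read 321, 318 and 377 CPM in H4K91Q, 411, 387 and 354 CPM in H4K91R and 698, 596 and 780.5 CPM in H4WT libraries. It fell less than Actn1, with changes of -1.03 ± 0.10 (SE, adjusted p = 5.25e-06) in H4K91Q and -0.85 ± 0.10 (SE, adjusted p = 2.06e-05) in H4K91R cells. In both genes every mutant library lay below every H4WT library, and the mutants overlapped each other. Tln1, the talin of most cells that activates integrins, had 277, 251 and 334 CPM in H4K91Q, 349, 317 and 306 CPM in H4K91R and 629, 530.4 and 675 CPM in H4WT libraries. Every mutant library lay below the H4WT libraries, with changes of -1.09 ± 0.11 (SE, adjusted p = 6.18e-06) in H4K91Q and -0.91 ± 0.11 (SE, adjusted p = 2.11e-05) in H4K91R cells. Flnc, the filamin of muscle, read 166, 131 and 193 CPM in H4K91Q, 247, 196 and 171 CPM in H4K91R and 381, 274 and 397 CPM in H4WT libraries. H4K91R replicate 1 came close to the lowest H4WT library, and the changes were -1.10 ± 0.17 (SE, adjusted p = 0.000154) in H4K91Q and -0.77 ± 0.17 (SE, adjusted p = 0.002) in H4K91R cells.

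Tln2, Tns1 and Tns3 were not called against H4WT. Tln2, the second talin, which is prominent in brain and muscle, averaged 60.7 ± 9.55 CPM in H4K91Q, 67.1 ± 5.42 CPM in H4K91R and 57.4 ± 5.08 CPM in H4WT cells (SD, n = 3 each). Its log2 changes were 0.08 and 0.22 (adjusted p = 0.601 and 0.117). Tns1 encodes a tensin of fibrillar adhesions and averaged 81.3 ± 13.3, 73.1 ± 4.31 and 77.5 ± 12.9 CPM in H4K91Q, H4K91R and H4WT cells, with groups that overlapped. Tns3, a related tensin, read 305, 278 and 351 CPM in H4K91Q, 238, 249 and 248 CPM in H4K91R and 240.5, 272 and 293 CPM in H4WT libraries. Its changes of 0.21 in H4K91Q and -0.13 in H4K91R cells did not pass (adjusted p = 0.0711 and 0.26). The H4K91Q change passed in 4 of 15 alternatives, among them without H4K91Q replicate 2 or H4WT replicate 3 (0.29 and 0.27, adjusted p = 0.0271 and 0.045) and with the replicate block (0.21, adjusted p = 0.0486).

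Promoters are shown for 4 of the linkers and LIM proteins that fell in both mutants and whose start regions hold a motif of a factor known for contractile or adhesion genes. The factors are SRF, which binds the CArG box and with its partners drives muscle and cytoskeletal genes, TEAD, the DNA-binding partner of YAP and TAZ, and AP-1. Capitals mark the motif, and the bases lie before an annotated start, on the gene's own strand (RefSeq, GRCm38.p6). For Vcl the stretch is chr14:20929153-20929272 on the plus strand, with a CArG box and then a TEAD motif, and for Actn4 it is chr7:28962483-28962562 on the minus strand, with a TEAD motif, read on the other strand, and an AP-1 motif. For Flna it is chrX:74246650-74246709 on the minus strand and for Lpp chr16:24721645-24721704 on the plus strand, each with a TEAD motif. These stretches of Flna and Lpp lie inside the gene's span (Flna 74223461-74249854, Lpp 24393350-24992578). They thus stand before an internal start and not before the outermost one.
Vcl: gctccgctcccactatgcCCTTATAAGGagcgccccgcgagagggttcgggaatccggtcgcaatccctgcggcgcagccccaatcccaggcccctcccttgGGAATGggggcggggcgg
Actn4: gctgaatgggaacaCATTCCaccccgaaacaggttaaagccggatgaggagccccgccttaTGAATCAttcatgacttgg
Flna: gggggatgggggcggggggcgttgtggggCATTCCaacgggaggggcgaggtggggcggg
Lpp: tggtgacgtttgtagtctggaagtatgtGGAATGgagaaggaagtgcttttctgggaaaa

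RefSeq windows of 250 bases before and 50 after a start matched 30 of the 39 genes, in 40 windows, which were searched on both strands; no motif overlapped another. The CArG box (by its name, the SRF consensus of 10 bases) was in 2 of the 40 windows, those of Vcl and Itgb6, and in 1.63% of the 32851 windows of all genes. The TEAD motif GGAATG was in 7 windows of 6 genes, Flnc, Actn4, Itgb1, Vcl, Lpp and Flna, and in 14.7% of all windows. The AP-1 motif TGANTCA was in 4 windows, those of Zyx, Actn4, Itga9 and Itga3, and in 7.81% of all windows. The windows of Itgb6, Itga9, Itga3 and Zyx, like those of Flna and Lpp, lie wholly inside the gene's span. The starts of the Vcl and Actn4 windows and of a further Flnc window also lie inside the span, near its edge. Itga9 was higher in both mutants, and Zyx, Actn4 and Itga3 were lower. The shares of windows with a TEAD or AP-1 motif were near those of all windows, and the CArG box was in only 2. A match describes the letters only and does not show that a factor binds there.

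The ILK, PINCH and parvin complex is a scaffold that couples beta tails to actin. All 4 of its genes among the 39 were called lower in both mutants. Over all genes tested, 23.8% were called lower in H4K91Q and 25.1% in H4K91R cells. The complex as a whole is not covered. Parvb, a parvin outside the 39, read 39.5, 38.2 and 39.7 CPM in H4K91Q and 45.8, 42.5 and 39.7 CPM in H4K91R libraries. In H4WT libraries it read 39.7, 48.6 and 46.5 CPM. Parva, the alpha-parvin of this complex, read 177, 164 and 182 CPM in H4K91Q, 176, 169 and 161 CPM in H4K91R and 292, 274 and 295 CPM in H4WT libraries (chromosome 7, 112427706-112591688). The spread within each group was small, and the changes were -0.72 ± 0.07 (SE, adjusted p = 3.36e-06) in H4K91Q and -0.76 ± 0.07 (SE, adjusted p = 1.56e-06) in H4K91R cells. Ilk, the pseudokinase at its centre, averaged 156 ± 5.08 CPM in H4K91Q, 169 ± 15.4 CPM in H4K91R and 253 ± 34.1 CPM in H4WT cells. Its log2 changes were -0.70 and -0.58. Lims1, which encodes PINCH-1, averaged 121 ± 9.78, 114.7 ± 7.91 and 182 ± 20.9 CPM in H4K91Q, H4K91R and H4WT cells, with changes of -0.58 and -0.66. Lims2, the scarce relative that encodes PINCH-2, read 0.943, 1.15 and 1.35 CPM in H4K91Q, 1.496, 0.629 and 1.77 CPM in H4K91R and 3.01, 4.63 and 2.94 CPM in H4WT libraries. At such low counts the libraries of a group differed widely, H4K91R replicate 2 being the lowest of all, yet no mutant library reached the H4WT range. The changes were -1.71 ± 0.30 (SE, adjusted p = 0.000494) and -1.53 ± 0.32 (SE, adjusted p = 0.0016).

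Of the 3 signalling proteins, Ptk2 and Bcar1 were lower in both mutants and Pxn was called in neither. Ptk2 encodes FAK, the tyrosine kinase of focal adhesions, and read 119, 116 and 118 CPM in H4K91Q, 119, 119 and 114 CPM in H4K91R and 151, 153 and 146 CPM in H4WT libraries (chromosome 15, 73205102-73423820). The libraries of each group lay within a few CPM of each other, and the mutants overlapped each other below H4WT. The changes were small, -0.35 ± 0.06 (SE, adjusted p = 0.000334) in H4K91Q and -0.36 ± 0.06 (SE, adjusted p = 0.000312) in H4K91R cells. Bcar1 encodes p130Cas, a docking protein that FAK and Src phosphorylate. It averaged 101 ± 7.99 CPM in H4K91Q, 109 ± 4.78 CPM in H4K91R and 171 ± 17.7 CPM in H4WT cells, with changes of -0.76 and -0.65. Pxn, which encodes the scaffold paxillin, averaged 65.1 ± 2.498, 70.4 ± 6.02 and 71.3 ± 7.16 CPM in H4K91Q, H4K91R and H4WT cells. Its changes of -0.14 and -0.02 did not pass (adjusted p = 0.222 and 0.888).

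Zyxin and its relatives gather on actin under tension. Zyx had 142, 136 and 157 CPM in H4K91Q, 200.4, 169.6 and 141 CPM in H4K91R and 404, 373 and 481 CPM in H4WT libraries (chromosome 6, 42349511-42360213). Its highest mutant library stood well under the lowest H4WT library, and the changes were -1.53 ± 0.12 (SE, adjusted p = 1.13e-06) in H4K91Q and -1.29 ± 0.12 (SE, adjusted p = 2.55e-06) in H4K91R cells. Lpp, a zyxin relative that is abundant in smooth muscle, read 84.1, 74.7 and 99.2 CPM in H4K91Q, 83.4, 78.6 and 65.8 CPM in H4K91R and 278, 179 and 302 CPM in H4WT libraries (chromosome 16, 24393350-24992578). H4WT replicate 2 was lower than the other H4WT libraries but above all mutant libraries, and the changes were -1.55 ± 0.17 (SE, adjusted p = 1.00e-05) and -1.73 ± 0.17 (SE, adjusted p = 3.87e-06). Vasp, which zyxin recruits to extend actin filaments, averaged 112 ± 2.96 CPM in H4K91Q, 123 ± 12.7 CPM in H4K91R and 184 ± 20.7 CPM in H4WT cells. It fell by 0.71 and 0.57 on the log2 scale.

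The PDZ-LIM proteins and the LIM-only protein Csrp1 included the lowest adjusted p-values of the set. Pdlim5, which binds alpha-actinin and kinases, read 61.3, 63.1 and 64.0 CPM in H4K91Q, 76.1, 67.2 and 60.6 CPM in H4K91R and 231, 174.8 and 238 CPM in H4WT libraries (chromosome 3, 142239585-142395719). Each H4WT library was more than 2 times the highest mutant library, and the changes were -1.77 ± 0.11 (SE, adjusted p = 3.18e-07) in H4K91Q and -1.65 ± 0.11 (SE, adjusted p = 2.59e-07) in H4K91R cells. Csrp1, a protein of smooth muscle that binds zyxin and alpha-actinin, had 134, 154 and 138 CPM in H4K91Q, 148, 123 and 144 CPM in H4K91R and 375, 343 and 372 CPM in H4WT libraries (chromosome 1, 135720063-135752229). Within each group its libraries were close together, and the changes were -1.36 ± 0.08 (SE, adjusted p = 2.57e-07) and -1.39 ± 0.08 (SE, adjusted p = 1.20e-07). Pdlim7, also called Enigma, had 64.6, 61.2 and 58.8 CPM in H4K91Q, 88.5, 68.7 and 66.3 CPM in H4K91R and 152, 127 and 154 CPM in H4WT libraries. Its H4K91Q libraries lay below its H4K91R libraries, and both below H4WT, with changes of -1.22 ± 0.11 (SE, adjusted p = 2.40e-06) in H4K91Q and -0.94 ± 0.11 (SE, adjusted p = 1.505e-05) in H4K91R cells. The difference between the mutants did not pass (adjusted p = 0.154).

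**Figure D3:**
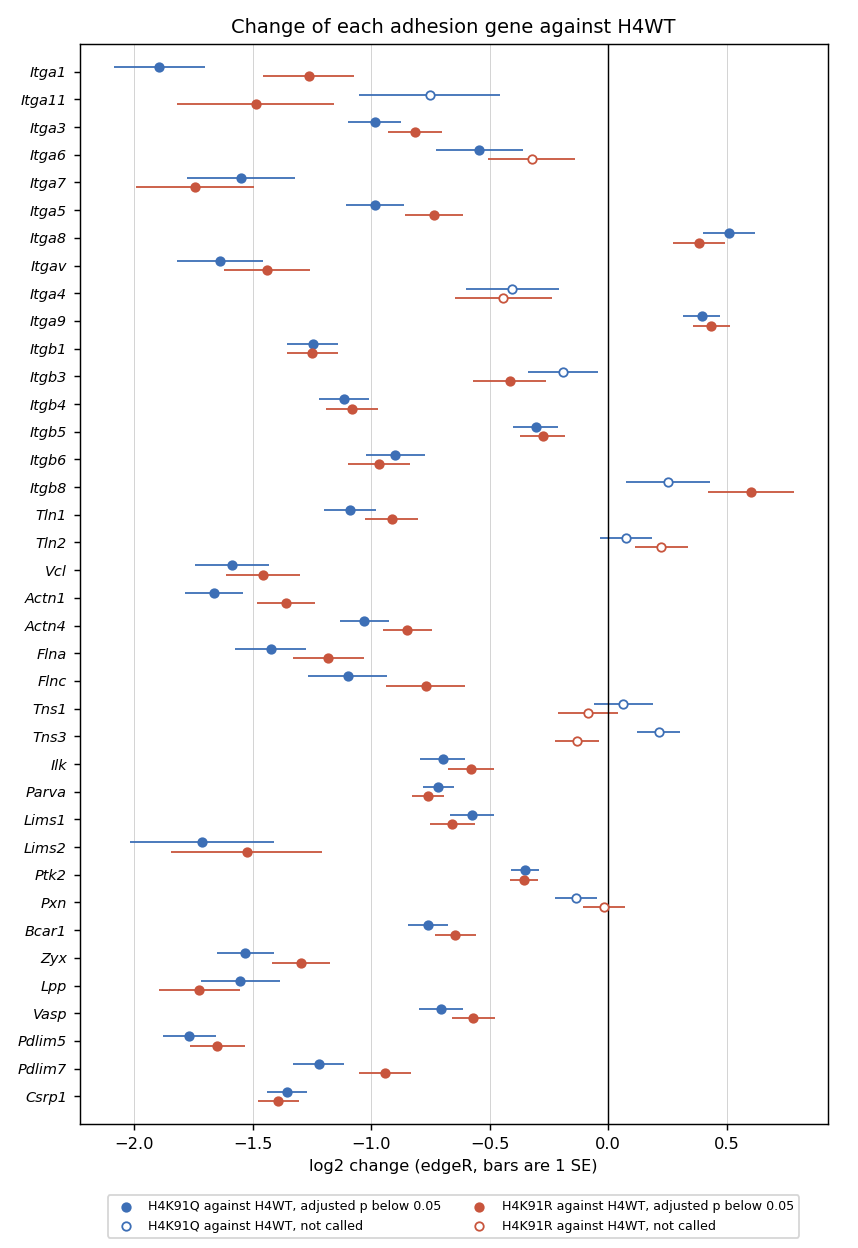
Log2 change of each tested adhesion gene against H4WT, for H4K91Q and H4K91R cells, with bars of 1 SE; filled points passed an adjusted p of 0.05 and open points did not. Most points lie left of 0, the points right of 0 that are filled belong to Itga8, Itga9 and, in H4K91R cells, Itgb8, and the points of the mutants lie close together for most genes.

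Between the mutants, the adhesion genes differed little. The direct test of H4K91Q against H4K91R called 1 of 38 higher and 0 lower, where 2.37% of all genes tested were called higher and 2.78% lower, and the median change was -0.12. The call was Tns3, named because it was the single one, with 305, 278 and 351 CPM in H4K91Q and 238, 249 and 248 CPM in H4K91R libraries, a change of 0.35 ± 0.09 (SE, adjusted p = 0.0469). It was a marginal call that only 5 of 15 alternative analyses kept. Leaving out any library but H4WT replicate 1 ended it, at an adjusted p of up to 0.135. The widest differences in size were those of Itga11, at 0.73 ± 0.33 (SE, adjusted p = 0.216), and Itga1, at -0.63 ± 0.20 (SE, adjusted p = 0.0877), and neither passed. Itga1 did in 4 of 15 alternatives, among them without H4K91R replicate 3 (-0.81, adjusted p = 0.0287), and Itga11 in 1. Likewise Itga3 passed without H4K91Q replicate 3 (-0.34, adjusted p = 0.0354). For Itga1 and Pdlim7 all H4K91Q libraries were nonetheless below all H4K91R libraries, and for Tns3 all were above. Over all genes tested 12.8% had the H4K91Q libraries all below and 12.5% all above. With 3 libraries a group, a p that misses the threshold does not show that the mutants act alike. The SE of these differences was 0.0593 to 0.357 on the log2 scale.

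Within groups, libraries also differed across many adhesion genes at once. H4K91R replicate 1 was the highest of its group for 27 of 38 genes and replicate 3 the lowest for 28, whereas over all genes tested these libraries were highest for 30.4% and lowest for 38.1%. In H4K91Q, replicate 3 was highest for 23 and replicate 2 lowest for 24, against 35.7% and 33.1% of all genes. In H4WT, the deepest library, replicate 2, was lowest for 25 of 38, against 32.8% of all genes. The number called lower against H4WT nevertheless stayed between 27 and 30 for H4K91Q and between 27 and 29 for H4K91R when any 1 library was left out.

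Ratios of related genes counted in the same library do not depend on how libraries are scaled. Here 9 such pairs were chosen after their values were seen. An exact permutation test was run on them, but with 3 libraries a group its p cannot fall below 0.1. It therefore cannot decide whether a ratio differs. Tln1 counts exceeded Tln2 counts 4.74 ± 0.0677-fold in H4K91Q, 4.85 ± 0.455-fold in H4K91R and 10.7 ± 1.52-fold in H4WT libraries (SD, n = 3 each). The ratio of Itgav to Itga8 was 6.53 ± 0.743 in H4K91Q, 8.14 ± 2.08 in H4K91R and 28.1 ± 3.11 in H4WT libraries. For both pairs no mutant library came near an H4WT library, that is, the partner with the lower count made up more of the pair in the mutants. Actn1 over Actn4 was 0.64 ± 0.0117 in H4K91Q, 0.695 ± 0.045 in H4K91R and 0.993 ± 0.0361 in H4WT libraries, so that Actn4 held the larger count in mutant cells and the counts were nearly equal in H4WT cells. Itgb1 over Itgb5 was 6.61 ± 1.05 in H4K91Q, 6.41 ± 1.05 in H4K91R and 12.8 ± 2.62 in H4WT libraries.

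Parva over Parvb, the parvin that shares its role, was 4.46 ± 0.152 in H4K91Q, 3.97 ± 0.104 in H4K91R and 6.44 ± 0.867 in H4WT libraries. Ptk2 over Ptk2b, the FAK relative PYK2, ran the other way, at 13.4 ± 0.855 in H4K91Q, 14.8 ± 1.29 in H4K91R and 5.69 ± 0.644 in H4WT libraries, since Ptk2b fell further than Ptk2. Flna over Flnc and Itga5 over Itga8 were lower in both mutants, and Lims1 over Lims2 averaged higher but overlapped H4WT in H4K91R libraries.

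**Figure D4:**
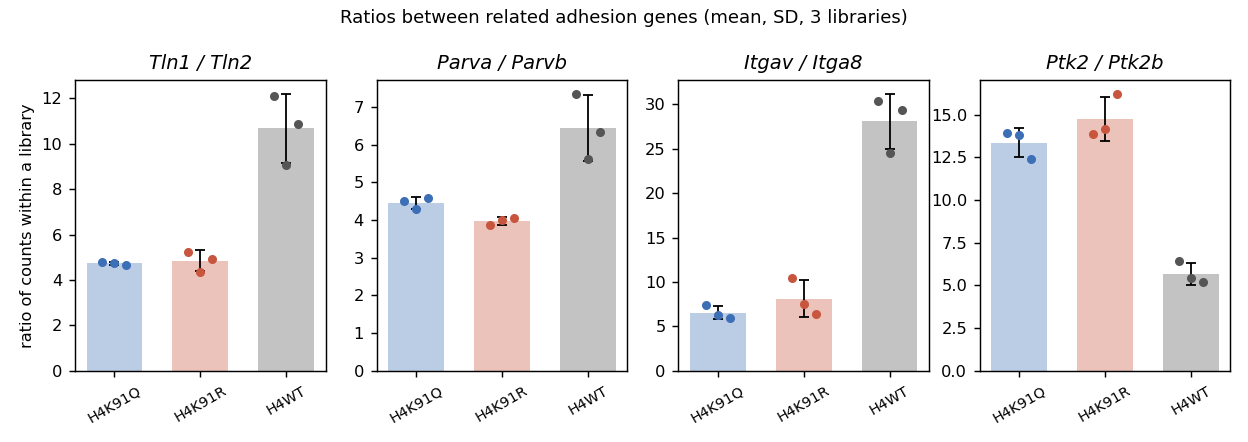
Ratios of the counts of related genes within each library for 4 pairs, with bars at the group mean, error bars of 1 SD and 1 point per library (n = 3). Tln1 over Tln2, Parva over Parvb and Itgav over Itga8 are lower in both mutants than in H4WT, and Ptk2 over Ptk2b is higher.

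Genes of the same pathway beyond the 39 are summarised by list, beside 23.8% of all genes tested called lower and 22.5% higher in H4K91Q and 25.1% and 20.9% in H4K91R cells. The actomyosin of stress fibres was the list with the most uniform change: of 18 genes tested, 17 were lower and 0 higher in H4K91Q and 17 lower and 0 higher in H4K91R cells (median -0.77 and -0.81 on the log2 scale). Myl9, the regulatory light chain of smooth muscle and non-muscle myosin, changed by -1.55 in H4K91Q and -1.54 in H4K91R cells, and the tropomyosins Tpm1 by -1.58 in H4K91Q and -1.60 in H4K91R cells and Tpm2 by -2.03 in H4K91Q and -2.20 in H4K91R cells. Mylk, the kinase that activates this light chain, changed by -1.70 in H4K91Q and -2.45 in H4K91R cells. Among 14 integrin ligands tested, 9 were lower and 1 higher in H4K91Q and 11 lower and 1 higher in H4K91R cells (median -0.73 and -1.24). With the replicate block, 11 were lower and 2 higher in H4K91Q and 11 lower and 3 higher in H4K91R cells. Thbs1, the matrix protein thrombospondin-1, fell furthest among those named by p-value, by 3.03 in H4K91Q and 2.73 in H4K91R cells. Ccn2 and Ccn1, matricellular proteins known as targets of YAP, changed by -2.54 in H4K91Q and -2.38 in H4K91R cells for Ccn2 and by -1.21 in H4K91Q and -1.26 in H4K91R cells for Ccn1, and the elastic fibre protein Fbln5 by -2.14 in H4K91Q and -2.47 in H4K91R cells.

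Of 25 other LIM and actin-linked adhesion proteins tested, 16 were lower and 3 higher in H4K91Q and 16 lower and 3 higher in H4K91R cells (median -0.55 and -0.59). Tes, a LIM protein that binds zyxin, changed by -1.52 in H4K91Q and -1.59 in H4K91R cells, and Pdlim1, a PDZ-LIM protein on alpha-actinin, by -1.27 in H4K91Q and -1.24 in H4K91R cells. Nexn, an actin-binding protein of muscle, changed by -1.37 in H4K91Q and -1.63 in H4K91R cells. Of 21 integrin activators, regulators and adaptors, 11 were lower and 1 higher in H4K91Q and 12 lower and 1 higher in H4K91R cells (median -0.34 and -0.38). Among them were Fermt2, the kindlin of mesenchymal cells, at -0.85 in H4K91Q and -0.87 in H4K91R cells, and the tetraspanin Cd151 at -0.75 in H4K91Q and -0.64 in H4K91R cells. The tensin Tns2 of this list went the other way. It read 50.5, 43.5 and 46.6 CPM in H4K91Q, 51.2, 50.3 and 39.3 CPM in H4K91R and 25.6, 26.0 and 29.5 CPM in H4WT libraries. Kinases and GTPase signalling proteins had smaller changes, with 12 lower and 1 higher in H4K91Q and 12 lower and 4 higher in H4K91R cells of 27 (median -0.17 and -0.23). Their lowest p-values were those of Ptk2b, at -1.60 in H4K91Q and -1.73 in H4K91R cells, and of the kinase Rock2, at -0.71 in H4K91Q and -0.84 in H4K91R cells. Rock1 was at -0.38 in H4K91Q and -0.58 in H4K91R cells and Pak2, a kinase activated by Rac and Cdc42, at -0.36 in H4K91Q and -0.40 in H4K91R cells. Of the 10 integrins outside the 39, chiefly those of blood cells, 4 could be tested. Itgb2, the beta subunit of leukocytes, changed by -0.90 in H4K91Q and -0.60 in H4K91R cells while Itga2b, the platelet subunit, was at 0.17 in H4K91Q and 0.58 in H4K91R cells. Itga2b was called in H4K91R cells, but in 8 of 15 alternatives and not without H4K91R replicate 1 or 2 or H4WT replicate 2 or 3 (adjusted p = 0.105, 0.0742, 0.128 and 0.062), and its difference between the mutants did not pass (adjusted p = 0.216).

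**Figure D5:**
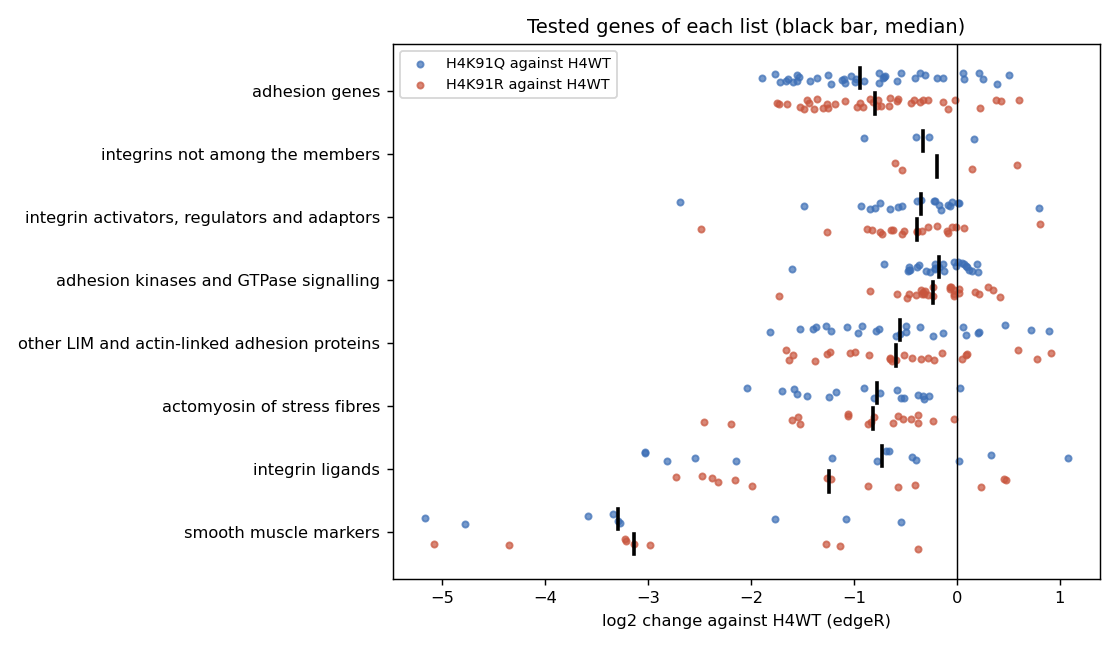
Log2 change against H4WT of each tested gene (points) in the adhesion genes, 6 neighbouring lists and the smooth muscle markers, for H4K91Q and H4K91R cells, with the median of each list as a black bar. The smooth muscle markers have the lowest median and all lie below 0, and the medians of the neighbouring lists all lie below 0.

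Marker lists of other cells are given beside these changes, to be read against 23.8% of all genes tested called lower and 22.5% higher in H4K91Q, and 25.1% and 20.9% in H4K91R cells. The smooth muscle markers had a median of -3.29 in H4K91Q and -3.14 in H4K91R cells, with Myh11, the smooth muscle myosin heavy chain, at -5.17 in H4K91Q and -5.08 in H4K91R cells, Acta2 at -3.34 in H4K91Q and -2.98 in H4K91R cells and Cnn1 at -3.58 in H4K91Q and -3.22 in H4K91R cells. Of 10 neuron markers, 1 was lower and 9 higher in H4K91Q and 0 lower and 9 higher in H4K91R cells, and of 8 neural progenitor markers, 1 was lower and 7 higher in H4K91Q and 0 lower and 7 higher in H4K91R cells. Of 8 epithelial markers, 6 were lower and 0 higher in H4K91Q and 6 lower and 0 higher in H4K91R cells, with summed levels of 973 to 1112 CPM, 893 to 1003 CPM and 1443 to 1584 CPM in H4K91Q, H4K91R and H4WT libraries. Of 10 fibroblast markers, 1 was lower and 5 higher in H4K91Q and 1 lower and 4 higher in H4K91R cells. Immune markers were near 0, with summed levels of 4.89 to 5.63 CPM in H4K91Q, 4.14 to 5.29 CPM in H4K91R and 8.06 to 9.31 CPM in H4WT libraries, where Tyrobp had no count in any library. Of 8 immune markers, 2 could be tested, and these 2 were called lower in each mutant. Of 10 genes that respond to handling, such as Fos and Atf3, 7 were lower and 2 higher in H4K91Q and 7 lower and 1 higher in H4K91R cells. They summed to 655 to 712 CPM, 589 to 691 CPM and 774 to 896 CPM in H4K91Q, H4K91R and H4WT libraries. The pluripotency markers went opposite ways in the mutants: of 8, 1 was lower and 6 higher in H4K91Q and 7 lower and 0 higher in H4K91R cells. Of 5 endothelial genes tested, 1 was lower and 2 higher in H4K91Q and 1 lower and 1 higher in H4K91R cells, with the share called lower near that over all genes. Of 7 endoderm genes, 4 were lower and 1 higher in H4K91Q and 2 lower and 1 higher in H4K91R cells. The part of these cell types and of handling in the adhesion genes' changes was not tested.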

How the data were processed

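Poly(A) RNA of the 9 libraries was isolated with an RNeasy kit and made into libraries with NEBNext Ultra II kits, per the labels' protocols. The authors deposited estimated counts per gene by Entrez ID, whole numbers for all 9 libraries in 1 table; Salmon 0.8.2, mm10 and DESeq2 are named, without their roles, per the submitters' processing notes. How the values became whole, and with which annotation, is stated nowhere in the labels. Entrez IDs were paired with symbols through RefSeq tables (24045 of 24100 matched), and gene coordinates are RefSeq GRCm38.p6. Exon lengths are the union of GENCODE M21 exons. The members and all lists were chosen with earlier results of these data known.

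Counts entered edgeR 4.0.16 (R 4.3.3): filterByExpr with a minimum count of 10 kept 14761 genes, libraries were scaled by TMM, and glmQLFit and glmQLFTest used 1 mean per group over all 9 libraries (common biological coefficient of variation 8.82%). P-values were adjusted by Benjamini-Hochberg across the genes tested, and a call needed less than 0.05. SE is the log2 change over the square root of F. The fit was tested on simulated counts. Replicates of a group differed by more than counting noise (chi-square per gene 4.19 to 11.4), so no library was taken as a copy of another. The deviations of same-numbered H4K91Q and H4WT libraries from their group means correlated at 0.14 to 0.20, all above those of differently numbered ones (-0.24 to 0.04). The labels do not say what a number stands for; for this comparison, values with the number as a block are printed where they change a call. Depth was 8970553 to 28887501 counts; 3 counts in a library equal 0.111 to 0.367 CPM.

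All members are accounted for. Values per library are given for those called with a log2 change of at least 1 in size in either mutant, or of at least 0.5 between the mutants, and for the member of each role with the highest mean CPM; of each neighbouring list, up to 3 called genes per comparison with the smallest adjusted p and a mean of at least 1 CPM; some of the genes this rule picks are not reported here. Alternatives were RLE and library size scaling, DESeq2 1.42.0, no low-count filter, a replicate block, fits on the compared groups only, and leaving out each library. Ratios of counts within a library are given as values, and nothing is concluded from their exact permutation test.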

Additional observations from a re-analysis of the deposited data

Results flagged for a closer look

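Among the adhesion genes and the neighbouring lists, 5 genes differed between the mutants in the direct test of H4K91Q against H4K91R, that is, their changes against H4WT were unequal. They were 1 of 38 adhesion genes, 1 of 18 actomyosin genes and 3 of 14 integrin ligands, all higher in H4K91Q. The other neighbouring lists had none. Over all genes tested, 2.37% were called higher and 2.78% lower. Tns3 was higher in H4K91Q by 0.35 on the log2 scale (edgeR, adjusted p = 0.0469). The others came from the neighbouring lists. Mylk read 22.6, 27.9 and 29.6 CPM in H4K91Q, 16.2, 15.3 and 15.95 CPM in H4K91R and 76.7, 81.2 and 103 CPM in H4WT libraries, all mutant libraries far below H4WT, and was higher in H4K91Q than in H4K91R by 0.75 (adjusted p = 0.00788). Spp1, the ligand osteopontin, read 8.83, 14.3 and 9.96 CPM in H4K91Q, 6.73, 3.46 and 2.46 CPM in H4K91R and 20.6, 16.04 and 17.1 CPM in H4WT libraries and was higher in H4K91Q by 1.31 (adjusted p = 0.0195). Postn, the matrix protein periostin, read 557, 688 and 669 CPM in H4K91Q, 335, 459 and 463 CPM in H4K91R and 267, 327 and 307 CPM in H4WT libraries and was higher by 0.61 (adjusted p = 0.0172); it was above H4WT in both mutants. Thbs2, thrombospondin-2, read 132, 170.2 and 193 CPM in H4K91Q, 69.7, 99.8 and 118 CPM in H4K91R and 172, 252 and 242 CPM in H4WT libraries and was higher by 0.79 (adjusted p = 0.0329). Mylk passed in all 15 alternatives, Postn in 14, Spp1 in 13, Thbs2 in 11 and Tns3 in 5. Without H4K91Q replicate 2, Postn, Spp1 and Thbs2 did not pass (adjusted p = 0.0822, 0.0838 and 0.11). Without H4K91R replicate 2, Spp1 and Thbs2 did not (adjusted p = 0.0941 and 0.0982), nor did Thbs2 without H4K91R replicate 1 or H4K91Q replicate 3 (adjusted p = 0.092 and 0.0727). For each of these genes every H4K91Q library lay above every H4K91R library, which held for 12.5% of all genes tested. The genes were picked by their calls from the same libraries, so this adds no support to the calls. The summed fibroblast markers, among which Postn is listed, were 7246 to 7904 CPM in H4K91Q and 6701 to 7490.1 CPM in H4K91R libraries, and their part in these differences was not tested.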

How the results depend on the processing

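Of the adhesion genes' calls against H4WT, 28 of 30 in H4K91Q and 28 of 32 in H4K91R cells were kept in all 15 alternatives; the exceptions were Itga6 and Itgb5 in H4K91Q and Itga8, Itgb3, Itgb5 and Itgb8 in H4K91R cells. Scaling by library size alone raised the median of all genes by 0.17 in H4K91Q and 0.18 in H4K91R cells (log2), so that 5557 genes were called higher and 2069 lower in H4K91Q and 5031 higher and 2013 lower in H4K91R, against 3314 and 3516, and 3092 and 3705, with TMM; of the adhesion genes 26 and 27 were still called lower. Changes that had not passed turned sign there: Pxn in H4K91Q to 0.034, and in H4K91R Pxn to 0.17, Tns1 to 0.099 and Tns3 to 0.054. Pxn in H4K91R was also 0.012 with RLE scaling, 0.012 with DESeq2 and 0.011 with the compared groups only. With 1 library left out, values ranged for Pxn in H4K91R from -0.086 to 0.047, for Tns1 in H4K91Q from -0.067 to 0.16 and in H4K91R from -0.20 to 0.018, and for Tln2 in H4K91Q from -0.054 to 0.16. For these reversals the cause beyond the scaling was not tested. Between the mutants, the adhesion genes called higher were 0 with RLE or library size scaling and those called lower 1 with DESeq2 and 1 with no low-count filter, where the main analysis had 1 and 0; DESeq2 called 619 of all genes lower against 411. With 1 library left out, all genes called higher between the mutants ranged from 110 to 543 and lower from 68 to 550, adhesion genes higher from 0 to 1 and lower from 0 to 1. Among the other 35 adhesion genes, 31 of 525 values between the mutants changed sign, none larger than 0.097 (log2).

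Same-numbered H4K91Q and H4WT libraries deviated together only weakly, with correlations of 0.14 to 0.20. For H4K91R against H4WT (correlations -0.16 to 0.17) and between the mutants (-0.05 to 0.20) they share only a number. There, differently numbered libraries correlated at up to 0.26 and 0.22. Of 9 libraries, 5 correlated best with their own number. With the number as a replicate block, 29 adhesion genes were lower and 3 higher in H4K91Q, 30 lower in H4K91R cells, and between the mutants 2 were higher and 1 lower. The block added the calls of Itga11 and Tns3 in H4K91Q given above, Itga6 in H4K91R (-0.33, adjusted p = 0.0403) and, between the mutants, Itga11 (0.71, adjusted p = 0.0213) and Itga1 (-0.61, adjusted p = 0.0462); it changed no other adhesion gene's call. Itga2, alone among the 39 genes, was too low to test.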
